A study of Mus musculus with 20 samples.

Results

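The GABA-A receptor subunits described here are the products of 7 genes, Gabra2, Gabra3, Gabra4, Gabra5, Gabrb1, Gabrb2 and Gabrd. They were chosen by name from a gene count table of mouse frontal cortex, in which they are 7 of 25965 rows. The study compared C57BL/6 mice carrying the Q331K change as a knock-in in TDP-43, an RNA-binding protein, at 5 months of age. The 20 libraries of polyadenylated RNA comprised 8 homozygous (Q331K/Q331K), 6 heterozygous (Q331K/+) and 6 wild-type (+/+) samples. Every group was of the same strain, age and tissue, and no treatment was labelled. The labels do not say more about the source of each sample, and each p-value therefore reflects only how these samples spread. The tissue was bulk, so that fewer cells of a type and less RNA per cell cannot be told apart.

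GABA-A receptors are chloride channels built from subunits around a central pore, and they carry most fast inhibition in cortex. GABA binds where an alpha and a beta subunit meet. The alpha subunit sets much of the receptor's place on the neuron and its response to benzodiazepines, and a gamma or a delta subunit completes most receptors. Receptors with gamma subunits gather at synapses, whereas those with delta sit mostly outside them and respond to ambient GABA and to neurosteroids.

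None of the 7 subunit mRNAs was called as changed between genotypes, at an adjusted p under 0.05 over the 16690 genes tested with edgeR's quasi-likelihood test. Of all genes tested, 1.56% were called in homozygotes against wild type, 0% in heterozygotes against wild type and 0.108% in homozygotes against heterozygotes, so that a count of 0 among 7 is no departure from the background. At an unadjusted p under 0.05, 1 of the 7 (Gabra2) differed between homozygotes and wild type, beside 16.1% of all genes. None did so in heterozygotes against wild type, beside 3.19% of all genes, or in homozygotes against heterozygotes, beside 11%. DESeq2 called none of the 7 either. The largest difference was in Gabra2, which averaged 27.1 ± 2.62 CPM (counts scaled to the size of each library) in the 8 homozygotes, against 24.9 ± 1.91 in the 6 heterozygotes and 23.8 ± 2.91 in the 6 wild types (mean ± SD, as throughout). Its log2 difference of homozygotes from wild type was 0.19 (SE 0.073) and was not significant after adjustment (edgeR adjusted p = 0.207). Between libraries of 1 genotype, 7 of 21 pairs of subunits had a Pearson correlation with an adjusted p under 0.05 by permutation. Not all of these passed by rank, and the share among other pairs of genes was not computed. The count is therefore not read as a trait of the subunits. Gabra2 and Gabrb1 deviated together and against Gabrd, while Gabra3, Gabra5 and Gabrb2 were positively related to each other and Gabrb2 also to Gabra4.

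Total counts per library were 69312426 to 105412832 for homozygotes, 61282647 to 111440766 for heterozygotes and 75168829 to 96821696 for wild type. The subunit counts lay between 1449 and 21747 in each library, so all 7 genes passed the filter on low counts, and counting error is small beside the spread between libraries. The labelled tissue was checked with 6 genes of cortical excitatory neurons, all of them well expressed in each library. Slc17a7, the cortical vesicular glutamate transporter, lay between 1296 and 1493 CPM, and Neurod6, a transcription factor of cortical projection neurons, between 97.97 and 134.1 CPM. Tardbp, the edited gene, averaged 245 ± 10.5 CPM in the 8 homozygotes, against 230.1 ± 7.58 in the 6 heterozygotes and 218 ± 5.53 in the 6 wild types. The counts do not show the edited base and so do not check the genotype labels themselves. Ependymal markers, 9 tested of 15 listed, summed to 10.1 to 29.4 CPM in homozygotes, 9.86 to 19.2 CPM in heterozygotes and 9.23 to 12.3 CPM in wild type. Striatal markers, 11 tested of 13, summed to 319 to 421 CPM in homozygotes, 346 to 749 CPM in heterozygotes and 339 to 410 CPM in wild type, and their highest value was that of heterozygous replicate 1. These sums take in every listed marker present in the count table, tested or not, and none of those was at 0 in all libraries.

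The coordinates below are GRCm38, as in the deposited table. On chromosome 5, Gabra2 (ENSMUSG00000000560) spans 70961057 to 71095849 on the minus strand, Gabra4 (ENSMUSG00000029211) spans 71569734 to 71658308 on the minus strand, and Gabrb1 (ENSMUSG00000029212) spans 71699932 to 72138389 on the plus strand. The deposited spans of Gabra2 and Gabra4 lie 473.9 kb apart, and those of Gabra4 and Gabrb1 41.6 kb apart. Gabra5 (ENSMUSG00000055078, minus strand) spans 57407690 to 57510009 of chromosome 7, and Gabra3 (ENSMUSG00000031343, minus strand) spans 72432681 to 72656848 of chromosome X. Gabrb2 (ENSMUSG00000007653, plus strand) spans 42419757 to 42629028 of chromosome 11, and Gabrd (ENSMUSG00000029054, minus strand) spans 155384980 to 155398112 of chromosome 4. In GENCODE M21 Gabra2, Gabrb2 and Gabrd overlap no other gene. Gabra4 overlaps Gabrb1, and Gabra5 overlaps the antisense gene Gm9962, each on the opposite strand. Gabra3 holds the microRNA genes Mir105 and Mir767 on its own strand and overlaps Gm14735 and Gm23461 on the other, and Gabrb1 overlaps the pseudogenes Gm15616 and Gm15617. Because no source used here gives the strand setting of the counting, overlapping genes could share reads.

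Gabra2 and Gabrb1 are the pair on chromosome 5 whose levels deviated together between libraries. For Gabra4, which lies between them, r was 0.0255 with Gabra2 and -0.0617 with Gabrb1, which does not show that it was unrelated. The 250 bases upstream of the RefSeq start that matches the deposited start of each gene are shown as a description. They are in the direction of transcription, with each CpG (the letters CG, which read alike on both strands) in capitals. Any part of these sequences in the levels was not tested. The windows are chr5:71095850-71096099 on the minus strand for Gabra2, chr5:71658309-71658558 on the minus strand for Gabra4 and chr5:71699682-71699931 on the plus strand for Gabrb1, all from RefSeq on GRCm38.p6.
Gabra2: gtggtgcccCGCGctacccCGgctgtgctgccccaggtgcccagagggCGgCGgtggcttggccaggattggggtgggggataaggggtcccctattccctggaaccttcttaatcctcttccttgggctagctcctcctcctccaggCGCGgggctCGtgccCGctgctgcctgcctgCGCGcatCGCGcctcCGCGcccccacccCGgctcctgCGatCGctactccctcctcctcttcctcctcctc
Gabra4: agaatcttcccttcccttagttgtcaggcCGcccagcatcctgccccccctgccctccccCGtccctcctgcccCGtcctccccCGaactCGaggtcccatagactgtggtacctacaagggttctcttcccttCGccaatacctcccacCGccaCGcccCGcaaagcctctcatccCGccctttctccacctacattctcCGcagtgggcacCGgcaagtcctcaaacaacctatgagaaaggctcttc
Gabrb1: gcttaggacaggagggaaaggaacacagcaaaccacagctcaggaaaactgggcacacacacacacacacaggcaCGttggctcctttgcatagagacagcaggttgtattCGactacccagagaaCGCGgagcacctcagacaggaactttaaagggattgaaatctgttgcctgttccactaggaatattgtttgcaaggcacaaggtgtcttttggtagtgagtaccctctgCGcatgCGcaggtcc
The Gabra2 window was 70.0% G and C and held 18 CpG, more than 78.3% of 32851 RefSeq windows of the same length, of which 92.1% hold at least 1. The Gabra4 window was 61.2% G and C with 12 CpG. The Gabrb1 window was 50.8% G and C with 6 CpG, beside medians of 52.4% and 6 over all windows. RefSeq also lists a Gabrb1 start at 71657921, within the span of Gabra4, whose window was 64.4% G and C and held 18 CpG, as many as that of Gabra2. Windows were found for 6 of the 7 genes.

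Levels can be set side by side between genes only per length of transcript. As CPM per kilobase of exon, the alpha 3 subunit gene Gabra3 ranked first, at 49.2 ± 2.48 in homozygotes (n = 8), 47.2 ± 1.75 in heterozygotes (n = 6) and 47.9 ± 1.18 in wild type (n = 6). Its lowest library exceeded the highest Gabrd library in each genotype. Gabrd followed at 24.6 ± 1.09 CPM per kilobase in homozygotes, 25.6 ± 1.17 in heterozygotes and 24.8 ± 0.934 in wild type. Gabrb2 stood at 21.9 ± 1.55 CPM per kilobase in homozygotes, 20.2 ± 2.42 in heterozygotes and 20.5 ± 2.05 in wild type. Gabra5 lay beside it at 20.8 ± 1.38, 19.5 ± 1.44 and 19.7 ± 0.764 CPM per kilobase in homozygotes, heterozygotes and wild type. Gabrb2 and Gabra5 could not be ordered, since Gabrb2 was the higher one in 6 of 8 homozygous, 3 of 6 heterozygous and 5 of 6 wild-type libraries. Gabra4 followed at 15.8 ± 1.19 CPM per kilobase in homozygotes, 15.5 ± 1.18 in heterozygotes and 15.3 ± 0.891 in wild type. Gabrb1 (9.65 ± 0.663, 9.48 ± 0.451 and 9.29 ± 0.574 CPM per kilobase in the same order of genotypes) and Gabra2 (6.47 ± 0.628, 5.97 ± 0.456 and 5.69 ± 0.695) were the lowest, and their ranges did not overlap within a genotype. The order of the means was the same in the 3 genotypes. It rests on exons within the deposited spans, because the GENCODE M21 models of Gabra2 and Gabrb1 reach further. With the full models Gabra2 stood at 3.54, 3.27 and 3.11 and Gabrb1 at 2.15, 2.12 and 2.07 CPM per kilobase in homozygotes, heterozygotes and wild type, which puts Gabra2 above Gabrb1.

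Among the 4 alpha genes, the per-length share of Gabra3 was 53.3 ± 0.897% in homozygotes (n = 8), 53.6 ± 0.634% in heterozygotes (n = 6) and 54.1 ± 1.14% in wild type (n = 6). Gabra5 held 22.5 ± 0.658% in homozygotes, 22.1 ± 1.15% in heterozygotes and 22.2 ± 0.498% in wild type. The share of Gabra4 was 17.2 ± 0.960%, 17.5 ± 1.10% and 17.3 ± 0.731%, and that of Gabra2 7.03 ± 0.824%, 6.78 ± 0.409% and 6.41 ± 0.632%, in homozygotes, heterozygotes and wild type. With the full GENCODE M21 lengths the share of Gabra2 was 4.00% in homozygotes, 3.85% in heterozygotes and 3.63% in wild type, so its level rests on the length used. The ranges of each share overlapped between genotypes.

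The alpha genes differed little between genotypes. Gabra2 encodes alpha 2, a subunit known to be enriched at synapses on the axon initial segment of pyramidal cells. Its lowest, median and highest levels were 23.7, 27.0 and 31.5 CPM in homozygotes, 22.95, 24.6 and 28.0 CPM in heterozygotes and 18.5, 24.9 and 26.1 CPM in wild type. The groups overlapped, with 5 of 8 homozygous libraries above the highest wild-type library, and the lowest value was that of wild-type replicate 6. The log2 difference of homozygotes from wild type was 0.19, with a 95% interval from 0.03 to 0.34 (unadjusted p = 0.0183, edgeR). Heterozygotes differed from wild type by a log2 value of 0.07, with an interval from -0.09 to 0.23. Per Q331K allele the log2 slope was 0.09 (SE 0.035, edgeR adjusted p = 0.174), with 0 of 7 subunits and 1.83% of all genes called for this trend. At an unadjusted p under 0.05 the trend held 1 of the 7, again Gabra2, and 16.8% of all genes. Without wild-type replicate 6 the log2 difference of homozygotes from wild type was 0.12 (edgeR adjusted p = 0.386). The direction turned with tissue marker scores as covariates, to -0.038 for homozygotes against wild type and -0.015 per allele, and with 3 surrogate variables, to -0.026 and -0.011, none of them called.

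Gabra3 encodes alpha 3, a benzodiazepine-sensitive subunit. Its lowest, median and highest levels were 176.0, 196 and 204 CPM in homozygotes, 174, 187 and 193 CPM in heterozygotes and 182, 188 and 194 CPM in wild type. The homozygous libraries lay on both sides of wild type, 6 of 8 above its highest library and 2 of 8 below its lowest. Homozygotes differed from wild type by a log2 value of 0.04, with a 95% interval from -0.03 to 0.10. Against heterozygotes it was 0.06, from -0.01 to 0.13.

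Gabra4 encodes alpha 4, which does not respond to classical benzodiazepines and often assembles with delta outside synapses. In homozygotes its lowest, median and highest levels were 90.7, 93.6 and 110 CPM, in heterozygotes 82.0, 96.4 and 100.2 CPM and in wild type 87.0, 93.4 and 99.2 CPM. The groups overlapped almost wholly, with 2 homozygous libraries above the others. For Gabra4 the log2 difference of homozygotes from wild type was 0.05, with a 95% interval from -0.06 to 0.15, and that of heterozygotes from wild type 0.01, from -0.10 to 0.12.

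Gabra5 encodes alpha 5, a subunit of largely extrasynaptic receptors that is best known from the hippocampus. Its lowest, median and highest levels were 52.2, 61.0 and 64.9 CPM in homozygotes, 52.6, 55.4 and 63.2 CPM in heterozygotes and 53.2, 57.7 and 59.6 CPM in wild type. Of the 8 homozygous libraries, 6 were above the highest wild-type library and 1 was below the lowest. In Gabra5 homozygotes differed from wild type by a log2 value of 0.08, with a 95% interval from -0.02 to 0.17 (edgeR adjusted p = 0.439). Against heterozygotes it was 0.09, from -0.00 to 0.19 (edgeR adjusted p = 0.455).

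The beta genes encode the subunits that, with an alpha subunit, form the GABA site. Gabrb1 (beta 1) had lowest, median and highest levels of 25.6, 30.5 and 31.7 CPM in homozygotes, 26.6, 29.7 and 30.3 CPM in heterozygotes and 26.0, 29.3 and 30.8 CPM in wild type. Both the lowest and the highest Gabrb1 library were homozygous. Its log2 difference of homozygotes from wild type was 0.05, with a 95% interval from -0.04 to 0.15. Gabrb2 (beta 2), a subunit of the most common brain receptor, had lowest, median and highest levels of 121, 139 and 153 CPM in homozygotes, 113, 129 and 156 CPM in heterozygotes and 113, 131 and 147 CPM in wild type. The highest Gabrb2 library was a heterozygous one, and the groups overlapped throughout. The log2 difference in Gabrb2 was 0.10 between homozygotes and wild type, with a 95% interval from -0.05 to 0.24, and 0.11 between homozygotes and heterozygotes, from -0.03 to 0.26.

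Gabrd encodes delta, the subunit of receptors that carry tonic inhibition outside synapses. Its lowest, median and highest levels were 66.8, 70.7 and 75.5 CPM in homozygotes, 69.6, 74.2 and 77.0 CPM in heterozygotes and 67.8, 72.0 and 73.7 CPM in wild type. Heterozygotes held the highest values, with 3 of 6 libraries above the highest wild-type library, and homozygotes overlapped both. The log2 difference of homozygotes from wild type was -0.01, with a 95% interval from -0.08 to 0.06 (edgeR adjusted p = 0.912). Heterozygotes differed from wild type by 0.05, from -0.03 to 0.12, and homozygotes from heterozygotes by -0.06, from -0.13 to 0.01, both on the log2 scale.

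**Figure D1:**
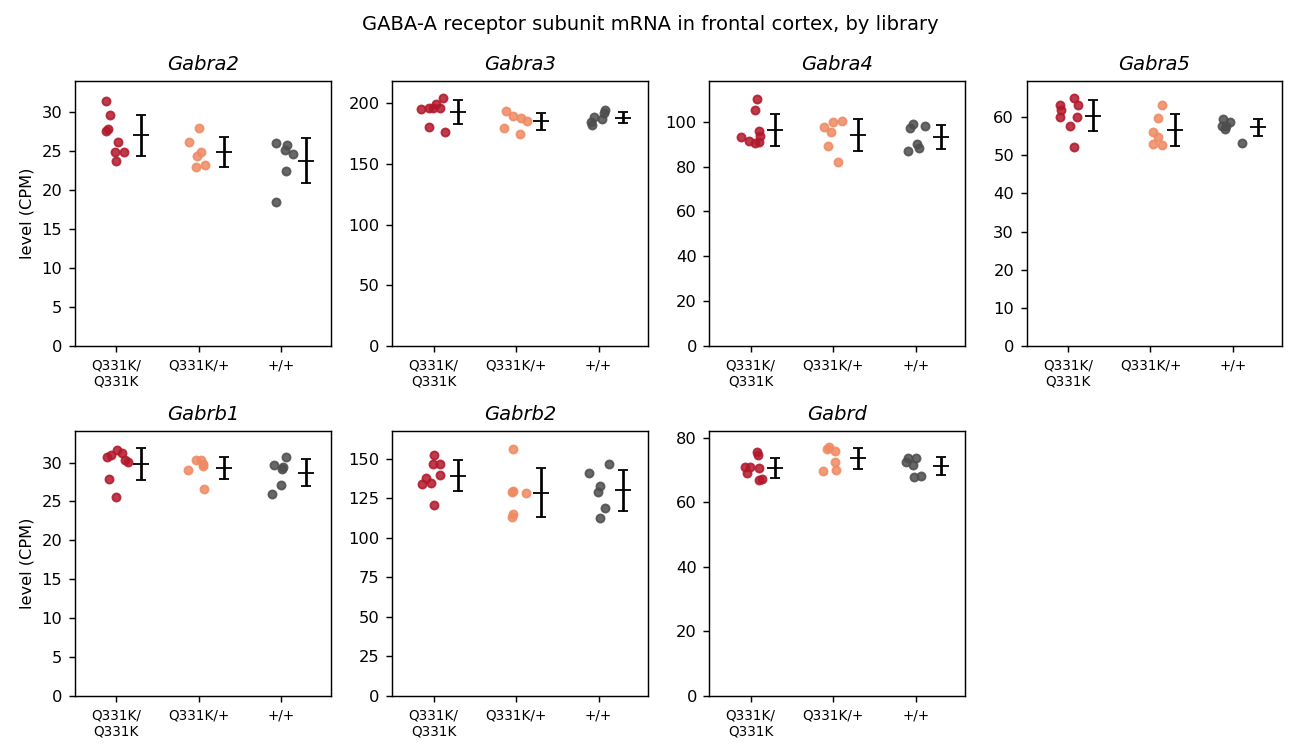
Level of each of the 7 subunit mRNAs in CPM (y axis, from 0) by genotype (x axis: Q331K/Q331K, n = 8; Q331K/+, n = 6; +/+, n = 6). Each point is a library and the bar beside it the mean with SD; the groups overlap for each gene, and Gabra2 has 5 of 8 homozygous libraries above the highest wild-type library.

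Over the 7 genes, the median log2 difference was 0.05 for homozygotes against wild type, beside 0.00 over all 16690 genes. It was 0.01 for heterozygotes against wild type and 0.06 for homozygotes against heterozygotes, beside 0.00 and -0.00 over all genes. The comparisons share samples and are not independent of one another. Apart from Gabra2 and Gabrb2, no interval of homozygotes against wild type went beyond 0.17 on the log2 scale in either direction. In counts simulated from these libraries, changes of 0.2 on the log2 scale between homozygotes and wild type were called in 33.8% of cases and changes of 0.3 in 65.1%. The changed genes were drawn at random from all genes tested, whatever their level. Rates for genes of the level and spread of the 7 subunits were not computed. Genes simulated with a homozygous change of 0.3 were called in heterozygotes against wild type in 12.8% of cases, since the heterozygotes were set at the midpoint.

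**Figure D2:**
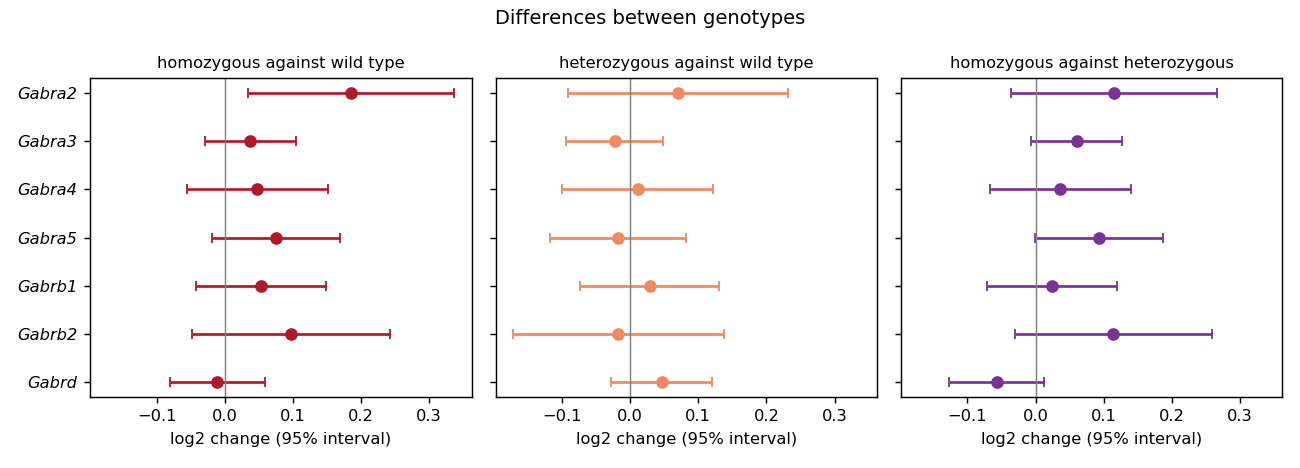
Log2 change (x axis, edgeR) of each subunit mRNA (y axis) in the 3 comparisons of genotypes, with 95% intervals. The interval of Gabra2 in homozygotes against wild type, from 0.03 to 0.34, is the 1 that leaves out 0, and its adjusted p is 0.207.

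Ratios of subunits within a library do not depend on its depth, so the 8 ratios that pair like subunits, or delta with alpha 4, were compared between genotypes. None of the 24 comparisons passed adjustment, none had an unadjusted p under 0.05 and no ratio separated the genotypes (two-sided exact permutation tests on log2 ratios, smallest adjusted p = 0.75). The largest difference was in Gabra2 to Gabra3, which averaged 0.132 ± 0.0162 per length in homozygotes (n = 8), 0.126 ± 0.00798 in heterozygotes (n = 6) and 0.119 ± 0.0138 in wild type (n = 6). In this ratio homozygotes and wild type differed by a log2 value of 0.15 (exact permutation p = 0.138). Gabra2 to Gabra4 stood at 0.411 ± 0.0575 in homozygotes, 0.388 ± 0.0419 in heterozygotes and 0.371 ± 0.0367 in wild type, a log2 difference of 0.14 between homozygotes and wild type (exact permutation p = 0.169). Gabra2 to Gabra5 stood at 0.313 ± 0.0427 in homozygotes, 0.307 ± 0.0210 in heterozygotes and 0.288 ± 0.0270 in wild type (exact permutation p = 0.234 for homozygotes against wild type). Without wild-type replicate 6, the log2 difference of homozygotes from wild type was 0.092 for Gabra2 to Gabra3 and 0.092 for Gabra2 to Gabra4. That of Gabra2 to Gabra5, 0.12 with all libraries, was 0.067 without wild-type replicate 6 or homozygous replicate 2. The size of the Gabra2 ratios, though not their log2 differences, rests on the Gabra2 length within the deposited span.

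The remaining alpha ratios were close between genotypes. Gabra3 to Gabra5 was 2.37 ± 0.0837 in homozygotes, 2.43 ± 0.147 in heterozygotes and 2.43 ± 0.0865 in wild type, the ratio with the lowest coefficient of variation in homozygotes (3.53%) and wild type (3.55%) of the 8 compared. Gabra3 to Gabra4 was 3.11 ± 0.211 in homozygotes, 3.06 ± 0.187 in heterozygotes and 3.13 ± 0.179 in wild type. Gabra4 to Gabra5 was 0.764 ± 0.0526 in homozygotes, 0.797 ± 0.0866 in heterozygotes and 0.778 ± 0.0439 in wild type. Each of these differed between genotypes by less than the SD within them.

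The beta ratio, Gabrb2 to Gabrb1, was 2.28 ± 0.219 in homozygotes, 2.14 ± 0.258 in heterozygotes and 2.20 ± 0.157 in wild type, and no pair of genotypes differed beyond that spread. Its level rests on the short Gabrb1 length within the deposited span. Gabrd to Gabra4, the pair of the extrasynaptic forebrain receptor, was 1.56 ± 0.111 in homozygotes, 1.66 ± 0.116 in heterozygotes and 1.62 ± 0.130 in wild type. The smallest unadjusted p of the ratios was that of Gabrd to Gabra4 in homozygotes against heterozygotes, at a log2 difference of -0.09 (exact permutation p = 0.115).

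**Figure D3:**
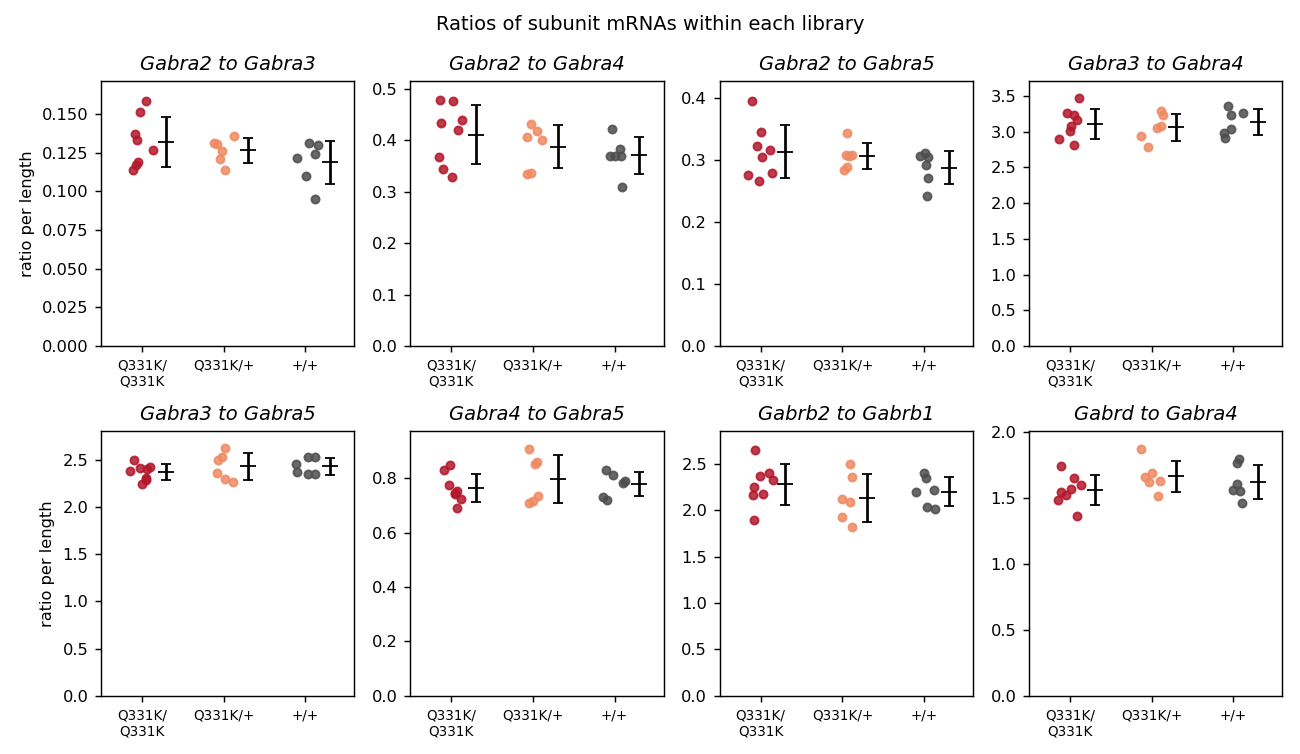
Ratios of subunit mRNAs per length within each library (y axis, from 0) by genotype (x axis: Q331K/Q331K, n = 8; Q331K/+, n = 6; +/+, n = 6). Points are libraries and bars the mean with SD; the genotypes overlap in each of the 8 ratios, whose smallest adjusted p is 0.75.

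Subunits differed in how much they varied between libraries. Gabra2 spread most, with a ratio of 1.7 between its highest and lowest library and an SD within genotypes of 0.15 on the log2 scale, followed by Gabrb2 at 1.39 and 0.14. Gabrd and Gabra3 spread least, at ratios of 1.15 and 1.17 and SDs of 0.06 each. The median SD over all genes tested was 0.10.

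The deviations of each library from its genotype mean were then compared between the 7 genes, over 20 libraries and 21 pairs. Of these pairs, 7 had a Pearson correlation with an adjusted p under 0.05, by permutation. The share of other gene pairs that would do so was not computed. The permutation ran over all 20 libraries and did not allow for the genotype means removed, so these p-values are somewhat too small. A pair near the threshold, such as Gabra3 and Gabrb2 at 0.0435, could miss it otherwise. Gabra3 and Gabra5, 2 alpha subunits, were the most alike (r = 0.716, permutation p = 0.00035, adjusted p = 0.00735; Spearman rho = 0.574, permutation p = 0.00879, adjusted p = 0.0461). Without the 2 libraries farthest from the median r was 0.556. Gabrb2 was related to Gabra5 (r = 0.65, permutation p = 0.00208, adjusted p = 0.0146) and to Gabra4 (r = 0.612, permutation p = 0.00451, adjusted p = 0.0165). The rank correlations of these were 0.526 for Gabra5 (permutation p = 0.0177, adjusted p = 0.0743) and 0.632 for Gabra4 (permutation p = 0.00371, adjusted p = 0.0431), and r was 0.417 and 0.512 without the 2 farthest libraries. Gabra3 and Gabrb2 had an r of 0.539 (permutation p = 0.0145, adjusted p = 0.0435), a rho of 0.406 (permutation p = 0.077, adjusted p = 0.18) and an r of 0.449 without the 2 farthest libraries.

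The genes of the chromosome 5 pair formed the other relation. Gabra2 and Gabrb1 had an r of 0.658 (permutation p = 0.0018, adjusted p = 0.0146), a rho of 0.588 (permutation p = 0.00779, adjusted p = 0.0461) and an r of 0.592 without the 2 farthest libraries. Gabra4, which lies between them, had an r of 0.0255 to Gabra2 (permutation p = 0.915, adjusted p = 0.961, and rho = -0.0526 with permutation p = 0.825). Its r to Gabrb1 was -0.0617 (permutation p = 0.796, adjusted p = 0.88, and rho = 0.0632 with permutation p = 0.791). Neither value shows that these genes were unrelated. Gabrd went against both Gabra2 and Gabrb1. Its r was -0.612 with Gabra2 (permutation p = 0.00383, adjusted p = 0.0165; rho = -0.629, permutation p = 0.0041, adjusted p = 0.0431) and -0.599 with Gabrb1 (permutation p = 0.0047, adjusted p = 0.0165; rho = -0.465, permutation p = 0.0413, adjusted p = 0.108). Without the 2 farthest libraries these were -0.578 and -0.45. Gabrd and Gabra4, often partners in 1 receptor, had an r of 0.238 (permutation p = 0.311, adjusted p = 0.435; rho = 0.248, permutation p = 0.29), which does not show that they were unrelated.

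**Figure D4:**
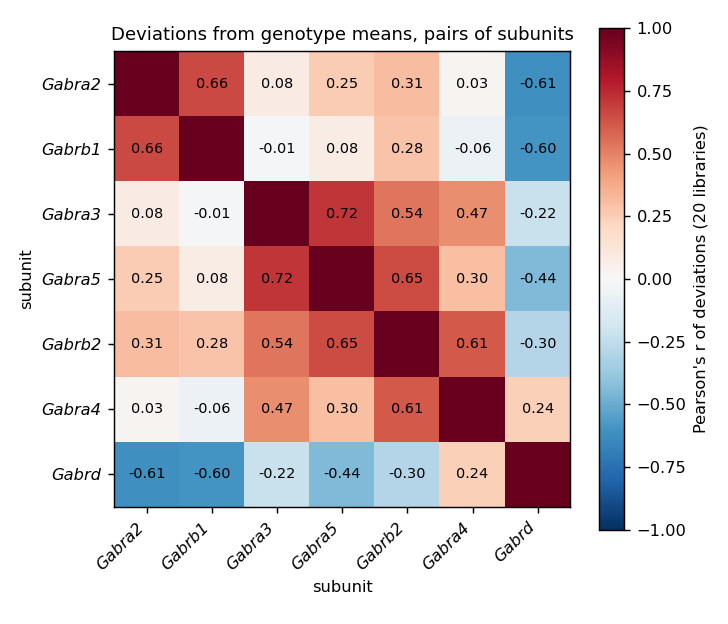
Pearson's r (colour, from -1 to 1) between the deviations of 7 subunit mRNAs from their genotype means over 20 libraries; both axes list the genes. Gabra2 and Gabrb1 (r = 0.658) run against Gabrd, and the highest r is that of Gabra3 and Gabra5 (0.716); pairs of Gabra3, Gabra5, Gabrb2 and Gabra4 are all positive, 4 of 6 of them with an adjusted p under 0.05.

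Libraries also differed in markers of other cell types, and 84 relations between the 7 subunits and 12 marker lists were computed on the same deviations. In 1 of the 84 the adjusted p was under 0.05. As with the pairs of subunits, genotype means had been removed, so these permutation p-values may also be somewhat too small. Gabrb2 was lower where the 8 astrocyte markers were higher (r = -0.747, permutation p = 0.00017, adjusted p = 0.0143; rho = -0.693, permutation p = 0.00109, adjusted p = 0.084; r = -0.728 without the 2 farthest libraries). The astrocyte markers summed to 1950 to 2430 CPM in homozygotes, 2040 to 2440 CPM in heterozygotes and 2020 to 2380 CPM in wild type. Gabra5 had an r of -0.664 with the astrocyte list (adjusted p = 0.0508, permutation), which did not pass.

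The closest relations of Gabra2 were to ependymal and choroid plexus markers, and neither passed adjustment. Its r with the ependymal score was 0.631 (permutation p = 0.00307, adjusted p = 0.0626; rho = 0.65, permutation p = 0.00263, adjusted p = 0.084; r = 0.549 without the 2 farthest libraries). With the choroid plexus score r was 0.606 (permutation p = 0.00447, adjusted p = 0.0626; rho = 0.621, permutation p = 0.004, adjusted p = 0.084). The library with the most Gabra2, homozygous replicate 1 at 31.5 CPM, had the highest ependymal score, 2.23, and the one with the least, wild-type replicate 6 at 18.5 CPM, had the lowest, -1.23. The ependymal score is a mean z score, and its lowest, median and highest values were -0.6, 0.275 and 2.23 in homozygotes, -0.752, -0.13 and 1.08 in heterozygotes and -1.23, -0.608 and -0.0165 in wild type. With the 4 libraries scoring above 0.5 left out, homozygotes and wild type differed in Gabra2 by a log2 value of 0.12 (edgeR adjusted p = 0.472). With the scores of the ependymal, olfactory bulb, meningeal and striatal lists as covariates it was -0.04 (edgeR adjusted p = 0.832), and with 3 surrogate variables -0.03 (edgeR adjusted p = 0.911). The part of these marker levels in the Gabra2 difference was not tested further.

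**Figure D5:**
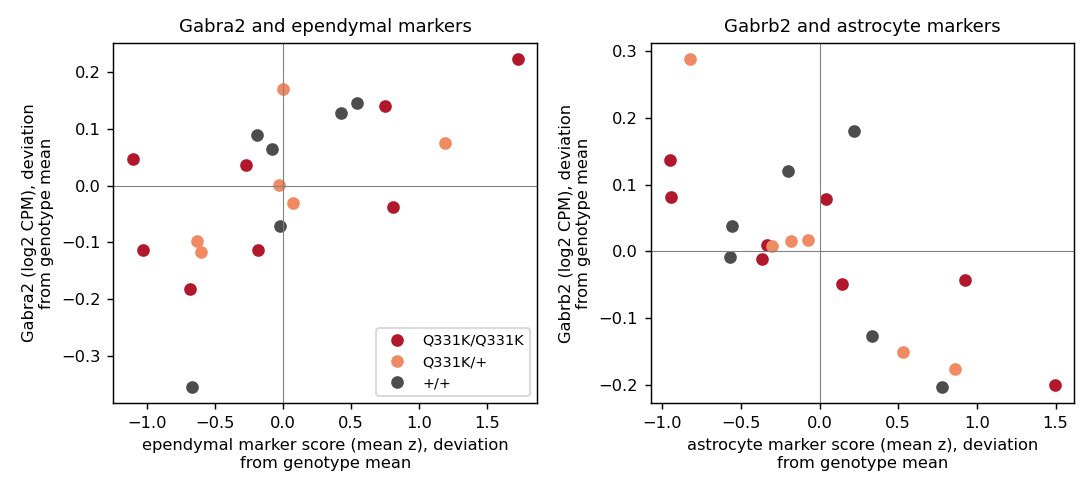
Deviation from the genotype mean of Gabra2 against the ependymal marker score (left) and of Gabrb2 against the astrocyte marker score (right); y axes are log2 CPM and x axes mean z scores, with 1 point per library (8 Q331K/Q331K, 6 Q331K/+, 6 +/+). Gabra2 has an r of 0.631 with the ependymal score (permutation adjusted p = 0.0626) and Gabrb2 an r of -0.747 with the astrocyte score (permutation adjusted p = 0.0143).

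For each subunit, the genes most like it across the 20 libraries were found among 12466 candidates (genes tested with a mean of at least 1 CPM, predicted genes left out) by the Pearson correlation of the same deviations. These are the highest of many values and are given as a description. Gabra5 was closest to Amph (r = 0.933), which encodes the endocytic protein amphiphysin, and to Sv2b (r = 0.901), which encodes a synaptic vesicle protein. Gabrb2 was closest to Hspa12a (r = 0.936) and Gabra4 to Efha2 (r = 0.926) and Cul1 (r = 0.922), the scaffold of a ubiquitin ligase. Gabra2 was closest to Parp11 (r = 0.883), Gabra3 to Lsamp (r = 0.847), a neuronal adhesion protein gene, Gabrd to Mcrs1 (r = 0.824) and Gabrb1 to Prkg2 (r = 0.788), a cGMP-dependent protein kinase gene. No gene was the closest one of more than 1 subunit.

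The other genes of GABA signalling were read from the same test, by list. Of 12 further GABA-A subunit genes, 8 passed the filter, and 1 was called in homozygotes against wild type, raised, beside 0.641% of all genes called in that direction. Their median log2 difference was 0.01. The called gene was Gabrq, which encodes theta, a subunit found mainly in hypothalamus and brainstem.

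Gabrq counts were low, from 34 to 251 per library. Its lowest, median and highest levels were 0.906, 1.29 and 3.04 CPM in homozygotes, 0.732, 0.876 and 1.09 CPM in heterozygotes and 0.372, 0.868 and 1.03 CPM in wild type. The groups overlapped. The log2 difference of homozygotes from wild type was 0.90 (SE 0.232, edgeR adjusted p = 0.0498). The call lay at the threshold. Over 30 alternatives the adjusted p ran from 0.00608 to 0.634 (edgeR, limma or DESeq2), and the call was kept in only 1 of the 20 fits that left out a library, the 1 without homozygous replicate 7. Without homozygous replicate 1, which had the highest ependymal score, the log2 difference was 0.66 (edgeR adjusted p = 0.0625). It was 0.42 with the tissue scores as covariates (edgeR adjusted p = 0.478) and 0.32 with 3 surrogate variables (edgeR adjusted p = 0.634).

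Of 23 genes of receptor clustering and trafficking, 1 was called in homozygotes against wild type, raised, beside 0.641% of all genes called in that direction. The list's median log2 difference was -0.02. At an edgeR unadjusted p under 0.05, 4 of the list were lower and 1 higher in homozygotes, beside 16.1% of all genes in either direction. The called gene was Hap1. Its product, huntingtin-associated protein 1, is known to help return internalised GABA-A receptors to the neuronal surface. Hap1 had lowest, median and highest levels of 89.1, 99.9 and 126 CPM in homozygotes, 87.3, 93.6 and 94.7 CPM in heterozygotes and 80.4, 87.5 and 93.0 CPM in wild type. The groups overlapped, and the log2 difference of homozygotes from wild type was 0.24 (SE 0.059, edgeR adjusted p = 0.0406). Over 30 alternatives its adjusted p ran from 0.00476 to 0.152 (edgeR, limma or DESeq2), and the call was lost with 3 surrogate variables, with only the 2 genotypes in the fit and in 9 of the 20 fits that left out a library. Gabrq and Hap1 were also the called genes of the lists in the trend per allele, at log2 slopes of 0.47 (edgeR adjusted p = 0.0351) and 0.12 (edgeR adjusted p = 0.0294), beside 0.779% of all genes called as raised.

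Supply and uptake of GABA gave no call. Of 8 genes tested, 5 had an edgeR unadjusted p under 0.05, 1 higher and 4 lower in homozygotes than in wild type. Of all genes tested, 16.1% had such a p in this comparison. The median log2 difference of the 8 was -0.05, and whether the list differs from other genes as a set was not tested. Gad1, which encodes a GABA-synthesising enzyme and overlaps Gad1os on the opposite strand, had lowest, median and highest levels of 287, 306 and 326 CPM in homozygotes, 298, 318 and 325 CPM in heterozygotes and 312, 330.96 and 343 CPM in wild type, a log2 difference of -0.10 (edgeR adjusted p = 0.131). The 8 parvalbumin interneuron markers summed to 537 to 593 CPM in homozygotes, 585 to 609 CPM in heterozygotes and 598 to 642 CPM in wild type, and their part in these differences was not tested.

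The remaining lists had no called gene in any comparison. Of 8 chloride transport genes tested, which set whether GABA-A channels inhibit, the smallest p between homozygotes and wild type was that of Clcn2, a chloride channel gene, at a log2 difference of -0.09 (edgeR adjusted p = 0.344), followed by the kinase gene Wnk2 at -0.08 (edgeR adjusted p = 0.362). Of 5 genes of the GABA-B receptor, the slower G-protein-coupled receptor, Kctd8, an auxiliary subunit gene, had a log2 difference of -0.20 (edgeR adjusted p = 0.0794; adjusted p = 0.0319 with DESeq2 and 0.0402 with limma voom), and the related Kctd16 had a log2 difference of 0.06 (edgeR adjusted p = 0.68). Of 7 neurosteroid and endozepine genes, Star and Cyp11a1, which act at the first steps of steroid synthesis, differed by -0.33 (edgeR adjusted p = 0.098) and -0.28 (edgeR adjusted p = 0.177) at levels of 1.25 to 3.45 CPM. No gene of the 6 lists was called in heterozygotes against wild type or in homozygotes against heterozygotes.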

How the data were processed

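The samples were frontal cortex, and the libraries were stranded and selected for polyadenylated RNA, per the labels' protocols. Reads were trimmed and aligned with tools that the submitters' processing notes list as HISAT2 2.0.5 and Trim Galore 0.4.3, on GRCm38. The deposited values were raw counts per gene, in 1 table. The program that counted them and its use of strand are not stated in the sources at hand. Genotypes came from the labels.

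All 20 libraries entered 1 edgeR 4.0.16 fit (R 4.3.3, TMM, filterByExpr, robust quasi-likelihood test, Benjamini-Hochberg adjustment over 16690 genes), which was also tested on simulated data. CPM uses TMM-scaled totals. Lengths are exons of GENCODE M21 within the deposited spans. Ratios were compared by exact permutation of log2 CPM (prior count 2), and correlations by 100000 permutations. For pairs of subunits these ran over all 20 libraries and did not allow for the genotype means removed. The relations to marker scores used the same deviations, and their p-values may be too small in the same way. Among 58 pairs of libraries of 1 genotype, chi-square over its degrees of freedom was at least 12.5, so none were duplicates.

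The subunits and gene lists were chosen with earlier results of these data known. All 7 subunits are named, with the called genes of each list or its 2 of smallest p, and the genes most like each subunit. Some genes of the lists are not reported here. Alternatives were DESeq2 1.42.0, its size factors, limma 3.58.1 voom, 2 other filters (none, and 1 CPM in at least 6 libraries), a block by replicate number, sva 3.50.0 with 3 surrogate variables, tissue scores, leaving out libraries, fits of 2 genotypes and, for ratios, a prior count of 0.5.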

Additional observations from a re-analysis of the deposited data

Results flagged for a closer look

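In 1 of 45 sets of samples examined, a library stood apart from the others of its genotype, and chance alone marks about 1 set in 20. Heterozygous replicate 1 had 26.61 CPM of Gabrb1, whereas the other 5 heterozygous libraries had 28.98 to 30.3 CPM, so that 0.643 of the group's range lay between it and its nearest neighbour. The same library had the highest striatal marker score, 3.19. Whether the 2 are linked was not tested. Without heterozygous replicate 1, the log2 difference of homozygotes from heterozygotes in Gabrb1 was -0.00, against 0.02 with it.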

How the results depend on the processing

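None of the 7 subunits was called in any comparison under any of the 30 alternatives (29 for the trend), and none of the 24 ratio comparisons under any of the 23 run for ratios. The number of genes called over the whole table did move. In homozygotes against wild type it was 261, and 117 with 3 surrogate variables, 137 with tissue scores, 647 with DESeq2 and 115 to 314 with 1 library left out. In heterozygotes against wild type it was 0, and 2 with DESeq2. In homozygotes against heterozygotes it was 18, and 11 with no filter, 1 with surrogate variables, 1 with tissue scores, 38 with limma, 103 with DESeq2 and 5 to 31 with 1 library left out, the lowest on dropping homozygous replicate 1 or 8 or heterozygous replicate 2. For the trend it was 306, and 116 with surrogate variables, 118 with tissue scores, 193 without the libraries of high ependymal score, 696 with DESeq2 and 159 to 436 with 1 library left out.

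Log2 differences whose sign turned were not called, and they include the largest of the subunits, Gabra2 in homozygotes against wild type (0.19) and against heterozygotes (0.12). Tissue scores turned homozygotes against wild type for Gabra2 (-0.038), Gabrb1 (-0.023) and Gabrd (0.028), homozygotes against heterozygotes for Gabra2 (-0.077) and Gabrb1 (-0.068), heterozygotes against wild type for Gabra3 (0.00074) and Gabra5 (0.0029) and the trend for Gabra2 (-0.015), Gabrb1 (-0.0079) and Gabrd (0.015). Surrogate variables turned homozygotes against wild type for Gabra2 (-0.026), Gabrd (0.011) and Wnk2 (0.021), homozygotes against heterozygotes for Gabra2 (-0.047) and Gabrb1 (-0.023), heterozygotes against wild type for Gabra4 (-0.0029) and the trend for Gabra2 (-0.011) and Gabrd (0.0077). Leaving out the libraries of high ependymal score turned Gabrb2 in heterozygotes against wild type (0.010) and, in homozygotes against heterozygotes, Gabrb1 (-0.00041) and the ratios of Gabra2 to Gabra3 (-0.041), Gabra4 (-0.011) and Gabra5 (-0.051). With 1 library left out, the sign turned for Gabrd in homozygotes against wild type (-0.026 to 0.00058), for Gabra4 (-0.0084 to 0.047), Gabra5 (-0.052 to 0.0015) and Gabrb2 (-0.080 to 0.019) in heterozygotes against wild type and for Gabrb1 in homozygotes against heterozygotes (-0.00092 to 0.054). It also turned for the ratios Gabra3 to Gabra4 (-0.033 to 0.011 against wild type and -0.0042 to 0.045 against heterozygotes, in homozygotes), Gabra2 to Gabra5 in homozygotes against heterozygotes (-0.029 to 0.055), and Gabra3 to Gabra5 (-0.026 to 0.018) and Gabra4 to Gabra5 (-0.0086 to 0.063) in heterozygotes against wild type. The cause was not tested.

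Replicate numbers are shared between genotypes, and over all genes tested the same-numbered libraries showed little tendency to deviate together. Over 18 same-numbered pairs the correlation of deviations ran from -0.104 to 0.139, and 1 pair exceeded 0.1. Whether such libraries share a factor that acts on some genes only was not tested. With the replicate number as a block, homozygotes exceeded wild type in Gabra2 by 0.21 (edgeR adjusted p = 0.117), 387 genes were called over the table, and no subunit was.

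Small differences between genotypes are not excluded by a p that misses the threshold. In simulation, changes under about 0.3 on the log2 scale were often missed, over genes drawn from all those tested. Rates for genes like the subunits were not computed. The lengths behind the levels come from a later annotation than the table.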
